A study of Mus musculus with 24 samples.

Results

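Creatine kinases move a phosphate group between ATP and creatine, and the genes described here are those of the 4 creatine kinase isoforms, of creatine supply and of the main adenylate kinase of muscle. They are Ckm, Ckb, Ckmt2, Ckmt1, the creatine transporter gene Slc6a8, the creatine synthesis genes Gatm and Gamt, and Ak1. The genes were taken by symbol from the expression table, and 8 of 8 were present among its 14912 genes. Left ventricles of male wild-type C57BL/6J mice were compared after 7 days of infusion from osmotic mini-pumps under the skin. The mice of the hypertensive-LVH group (LVH, left ventricular hypertrophy) received angiotensin II (ANG II), a hormone that raises blood pressure, at 1500 ng/kg/min, and the control mice received saline. There were 12 samples per group, numbered 1 to 12 in the labels, and every heart was flushed with 20 ml of saline before the ventricle was taken. The values were deposited as FPKM, the fragments of a gene scaled by its transcript length and by the mapped fragments of the sample, but they had been adjusted by gene, so that levels, shares and ratios between genes are given here on the adjusted scale.

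In the heart, ATP is made in mitochondria and used at the myofibrils and at the calcium pump. Mitochondrial creatine kinase, which sits between the mitochondrial membranes, uses new ATP to make phosphocreatine, and cytosolic creatine kinase at the sites of use turns phosphocreatine back into ATP. Cardiomyocytes make little creatine and take it up from blood through the transporter, while synthesis from arginine and glycine by the products of Gatm and Gamt is best known from kidney, pancreas and liver. Adenylate kinase runs a parallel route in which 2 ADP give ATP and AMP.

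The genes of the muscle-type creatine kinase system were lower after ANG II. Ckm, Ckmt2 and Ak1 fell, Slc6a8 rose slightly, and Ckb, Ckmt1, Gatm and Gamt did not pass the test. Thus 4 of the 8 genes passed an adjusted p of 0.05, 3 lower and 1 higher. The background in the same test was 33.5% of 14026 tested genes, with 12.6% lower and 20.9% higher (2928 genes higher and 1769 lower). With median-ratio scaling this split was 2394 to 2235, and with quantile normalization it was 1922 to 2930. Of the 8 genes, 0 were higher and 4 lower with median-ratio scaling, where Gamt replaced Slc6a8, and 1 was higher and 4 lower with quantile normalization. The 8 genes are too few for more than this description. The test was limma on log2(FPKM + 1), and p-values were adjusted over all tested genes by the Benjamini-Hochberg method. Adding a fold change threshold of 0.5 on the log2 scale left 1 of the 8, Ckm, as a differentially expressed gene (DEG), against 5.92% of all tested genes (4.52% higher and 1.40% lower). With quantile normalization the change of Ckm was -0.44 (limma adjusted p = 0.00182), so that 0 of the 8 were DEGs. Of those DEGs 634 were higher and 197 lower, and the split was 536 to 278 with median-ratio scaling and 458 to 275 with quantile normalization.

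The deposited values were not plain FPKM, which touches every result. Exact ties between samples divided each group into 4 sets of 3 samples, and 0 genes were tied between an ANG II sample and a control. Sets with the same sample numbers were joined, giving 4 sets of 3 ANG II and 3 control samples. Within these sets genes had been shifted and scaled, and each of the 8 genes could be solved with 1 scaling shared by both groups. Samples 1 to 3 of each group formed set 1, those numbered 4 to 6 set 2, those numbered 7 to 9 set 3, and the last 3 of each group set 4. Because of this adjustment, p-values from the deposited values may be too small, and differences are also given within the sets and before the adjustment. None of the 8 genes had a negative value, although 0.766% of all values in the table were negative. The labelled tissue was checked against 8 cardiomyocyte markers, whose group means ran from an FPKM of 179.5 (Ryr2, controls) to 14147 (Mb, controls), although the extraction protocol in the labels names CRC cells. The summed FPKM of these markers was 32329 to 45336 (median 38020) after ANG II and 42338 to 53675 (median 50078) in controls, a ratio of means of 0.782. Of the 8 markers, 4 fell (Actc1, Tnni3, Mb and Pln) and 0 rose; with quantile normalization 2 fell and 1 rose. In bulk tissue, fewer cardiomyocytes and less of an RNA per cardiomyocyte cannot be told apart. The same ratio was 1.63 for macrophage markers (5 of 5 rose), 3.26 for red blood cell genes (5 of 5 rose) and 1.21 to 1.47 in sets 1, 3 and 4 for fibroblast markers (3 of 6 rose in the full comparison). Summed fibroblast markers in the controls of sets 1, 3 and 4 were 756.0 to 922.4, but original levels cannot be compared between sets, whose offsets are unknown. In set 2 the summed fibroblast markers were 1507 to 2406 after ANG II and 127.5 to 214.5 in controls. All 9 values of Col1a1, Col1a2 and Col3a1 in the set 2 controls were below 0 and entered that sum as 0, so no ratio is given for this set. Without set 2, limma called 0 of 5 macrophage markers, 1 of 6 fibroblast markers and 5 of 5 red blood cell genes, where 2810 of all 14004 tested genes passed. The skeletal muscle list, whose tissue also makes Ckm, had a ratio of 3.34, and most of its sum was Acta1 (mean FPKM 1580 against 469), which stressed ventricle also expresses. Of 7 tested genes of that list, Acta1 and Tnnt3 rose and 2 fell. Tnnc2, Pvalb and Atp2a1 had a mean FPKM under 1, and Myh1, Myh2 and Myh4 were not analysed here. Summed atrial myocyte markers were uneven, at 340.4 to 6301 (median 2214) after ANG II and 0 to 8105 (median 292.0) in controls. One of them, Myl7, was 0 to 1040 after ANG II and 0 to 1443 in controls, with negative values as 0. The part of these shifts in the results below was not tested.

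The sequences just upstream of Ckm, Ckmt2 and Ckb are shown because the first pair fell together while Ckb, the brain-type isoform, did not pass the test. They come from RefSeq (GRCm38.p6), are 250 bases long, run 5′ to 3′ on the strand of the gene and end at the base before the annotated start. Capitals mark matches to an E-box (CANNTG), a TATA box (TATAAA), a GC box (GGGCGG), an estrogen-related receptor element (TNAAGGTCA) or the core of a MEF2 site (TATTTATA), each searched on both strands. The Ckm stretch is chr7:19410844-19411093 (plus strand, within the longer gene span that GENCODE gives), that of Ckmt2 is chr13:91876886-91877135 (minus strand) and that of Ckb is chr12:111672339-111672588 (minus strand).
Ckm: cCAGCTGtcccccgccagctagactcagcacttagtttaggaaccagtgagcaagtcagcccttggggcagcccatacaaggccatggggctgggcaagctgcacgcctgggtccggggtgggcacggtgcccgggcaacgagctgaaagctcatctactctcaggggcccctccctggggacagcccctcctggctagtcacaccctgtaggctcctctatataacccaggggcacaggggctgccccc
Ckmt2: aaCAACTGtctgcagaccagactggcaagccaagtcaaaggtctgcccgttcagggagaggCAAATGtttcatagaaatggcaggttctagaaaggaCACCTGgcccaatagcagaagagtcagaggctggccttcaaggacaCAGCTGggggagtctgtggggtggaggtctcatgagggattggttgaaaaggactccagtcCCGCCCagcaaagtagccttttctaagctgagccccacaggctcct
Ckb: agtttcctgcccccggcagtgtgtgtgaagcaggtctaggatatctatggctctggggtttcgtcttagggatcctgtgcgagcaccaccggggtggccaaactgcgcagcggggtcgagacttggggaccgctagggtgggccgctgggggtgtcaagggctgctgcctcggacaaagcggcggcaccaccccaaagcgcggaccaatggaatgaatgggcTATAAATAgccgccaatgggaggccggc
The Ckm stretch held 1 E-box, at its 5′ end, and no exact match to the other motifs. The search did not count near strings, such as the tatataa toward the 3′ end of Ckm. The Ckmt2 stretch held 4 E-boxes and, at position -46 from the start, 1 GC box. In Ckb a TATA box and a MEF2 core overlapped at position -28, and no E-box was found. Among all 32851 stretches of this length, 66.2% held an E-box, 12.4% a TATA box, 32.7% a GC box, 1.14% the estrogen-related receptor element and 1.56% the MEF2 core. A match is a string of letters only, and nothing was measured at these sites. RefSeq stretches were found for 7 of the 8 genes, the exception being Slc6a8.

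By level on the adjusted scale, the kinases of muscle stood far above the rest. Over the 24 samples the mean FPKM was 1527 for Ckm (rank 24 of 14912 genes) and 1457 for Ckmt2 (rank 28). Ak1 followed at 299, Slc6a8 at 97.6 and Ckb at 38.7. The synthesis genes were the lowest of the 8 but for Ckmt1, Gamt at 4.57 and Gatm at 2.05, and Ckmt1 was at 0.534. Ckm exceeded Ckmt2 in 15 of the 24 samples (10 of 12 controls and 5 of 12 ANG II samples), and the ranges of this pair overlapped. Every other neighbouring pair kept its order in 24 of 24 samples, although the ranges of Gamt and Gatm, and of Gatm and Ckmt1, also overlapped.

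**Figure D1:**
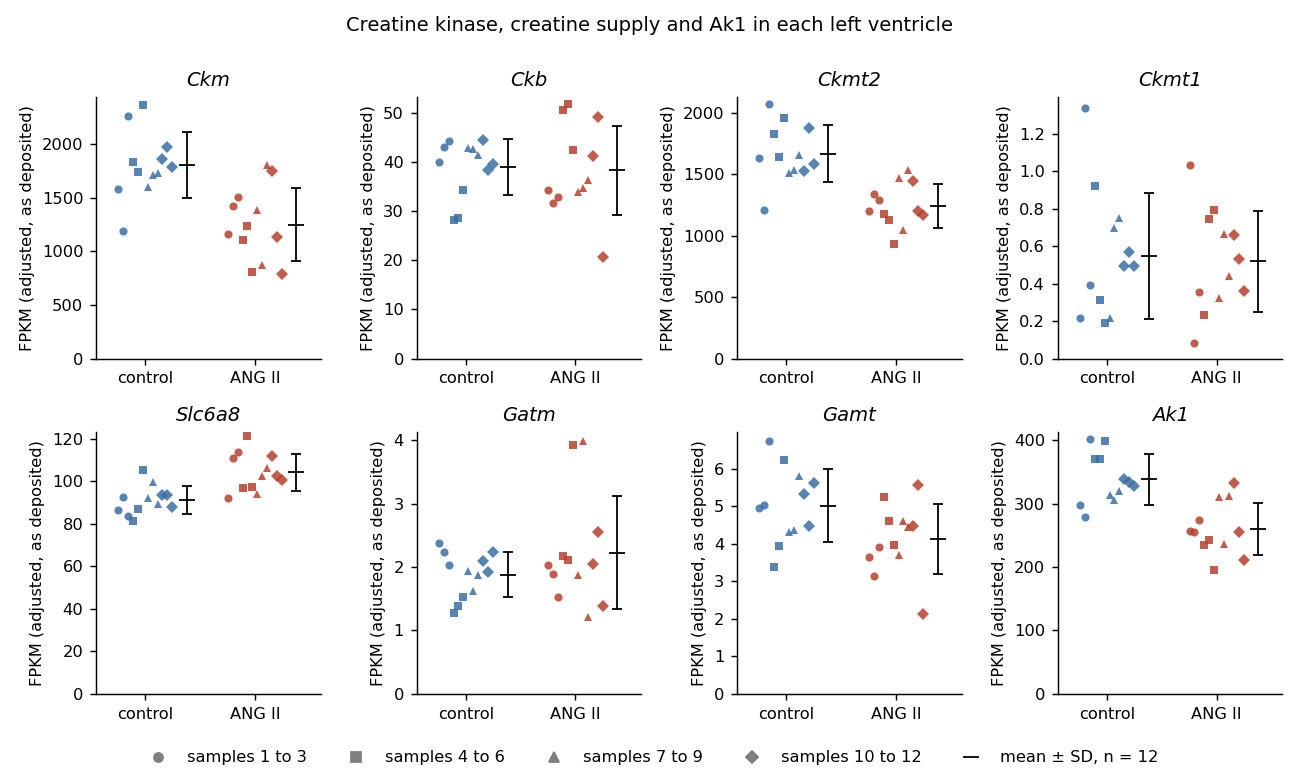
FPKM of each of the 8 genes in each left ventricle (vertical axes start at 0 and differ between panels), with 12 control samples in blue and 12 ANG II samples in red, marker shapes for the 4 sets, and the mean ± SD as a bar. Ckm, Ckmt2 and Ak1 are lower after ANG II (mean FPKM 1248 against 1805, 1245 against 1670 and 259.9 against 338.3), Slc6a8 is higher (104 against 91.1), and the groups of every gene overlap.

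Cytosolic creatine kinase is built from M subunits, the product of Ckm and the main cytosolic form of striated muscle, and B subunits, the product of Ckb. Ckm (ENSMUSG00000030399.2, chr7:19404776-19422841 in GENCODE M21, GRCm38) had an FPKM of 788.2 to 1810 (median 1196) after ANG II and of 1194 to 2366 (median 1762) in controls. ANG II sample 12 was the lowest and control sample 6 the highest. In all, 11 of 12 ANG II samples lay below the control median and 6 lay below every control, but the groups overlapped. The mean fell from 1805 ± 307.6 (SD, n = 12) to 1248 ± 340.3 (SD, n = 12). The log2 fold change was -0.56 ± 0.13 (SE, 95% CI -0.83 to -0.29) with a limma adjusted p of 0.00224. This corresponds to 32.3% less on the scale of FPKM + 1, and it stood at the 0.991 percentile of the log2 fold changes of all tested genes.

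Ckb (ENSMUSG00000001270.9, chr12:111669361-111672338) showed no difference that the test could call. Its FPKM was 20.77 to 51.78 (median 35.5) after ANG II and 28.13 to 44.40 (median 40.8) in controls. The ANG II values spread on both sides of the controls, with 3 samples above every control and 1, sample 12, below every control. The log2 fold change was -0.05 ± 0.11 (95% CI -0.28 to 0.19, limma adjusted p = 0.775).

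B-type RNA made up more of the cytosolic total after ANG II on average, where Ckm fell and Ckb itself showed no called difference. Ckb was 1.96% to 5.00% (median 2.72%) of the summed FPKM of Ckm and Ckb after ANG II and 1.43% to 3.48% (median 2.25%) in controls. The mean share was 3.15 ± 1.06% (SD, n = 12) against 2.18 ± 0.567% (SD, n = 12). In 5 ANG II samples it was above every control, and the groups overlapped. Within the sets, the mean share was 4.46% against 1.52% in set 2, 2.73% against 2.46% in set 3 and 3.02% against 2.14% in set 4, and it was lower, at 2.40% against 2.62%, in set 1. These shares are descriptions without a test.

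The mitochondrial kinase of striated muscle, the product of Ckmt2, stands at the start of the phosphocreatine route. Ckmt2 (ENSMUSG00000021622.3, chr13:91853387-91876885) had an FPKM of 930.1 to 1536 (median 1204) after ANG II and of 1208 to 2077 (median 1635) in controls. All 12 ANG II samples were below the control median, 7 were below every control, and the groups overlapped, with control sample 2, at 1208, far below the other controls. The mean fell from 1670 ± 234 (SD, n = 12) to 1245 ± 179 (SD, n = 12). Its log2 fold change was -0.42 ± 0.09 (95% CI -0.60 to -0.25) with a limma adjusted p of 5.79e-04. The mitochondrial isoform of other tissues, Ckmt1 (ENSMUSG00000000308.14, chr2:121357714-121363737) had a low level (rank 12250 of 14912 genes). Its FPKM was 0.0815 to 1.03 (median 0.487) after ANG II and 0.189 to 1.34 (median 0.496) in controls, with 6 ANG II samples on each side of the control median. The log2 fold change was -0.02 ± 0.11 (95% CI -0.24 to 0.20, limma adjusted p = 0.902), and Ckmt1 supplied a mean of 0.0438% of mitochondrial creatine kinase FPKM after ANG II and 0.0350% in controls.

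Between Ckmt2 and Ckm the balance shifted less, with a mean ratio of 1.04 ± 0.185 (SD, n = 12) after ANG II and 0.932 ± 0.0662 (SD, n = 12) in controls. This ratio was 0.827 to 1.48 (median 1.05) after ANG II and 0.820 to 1.03 (median 0.943) in controls. Of the ANG II samples, 7 were above every control and 5 were below the control median. The highest ratio, 1.48, was that of ANG II sample 12, which had the lowest Ckm, and without it the ANG II mean was 0.997 and the difference between the means 0.0648 in place of 0.105. In set 1 the ratio was lower after ANG II, at 0.946 against 0.987, and in the other sets it was higher.

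The gene of creatine uptake moved the other way. Slc6a8 (ENSMUSG00000019558.14, chrX:73673150-73682502), the gene of the sodium- and chloride-dependent creatine transporter, had an FPKM of 92.26 to 121 (median 102) after ANG II and of 81.53 to 105 (median 90.7) in controls. All 12 ANG II samples were above the control median and 5 were above every control, while 7 controls were below every ANG II sample. The mean rose from 91.1 ± 6.61 (SD, n = 12) to 104 ± 8.83 (SD, n = 12), which is 1.14-fold. The log2 fold change was 0.19 ± 0.05 (95% CI 0.10 to 0.29, limma adjusted p = 0.00302), at the 78.3 percentile of all tested genes. With median-ratio scaling the change was 0.14 and no longer passed (limma adjusted p = 0.0784).

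The 2 steps of creatine synthesis were weakly represented. Gatm (ENSMUSG00000027199.14, chr2:122594467-122611303) encodes glycine amidinotransferase, which makes guanidinoacetate from arginine and glycine. Its FPKM was 1.22 to 3.99 (median 2.04) after ANG II and 1.28 to 2.39 (median 1.93) in controls. ANG II samples 6 and 8, at 3.92 and 3.99, stood apart from the other ANG II samples, the highest of which was sample 11 at 2.56. Its log2 fold change was 0.13 ± 0.11 (95% CI -0.10 to 0.36, limma adjusted p = 0.375).

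Gamt (ENSMUSG00000020150.13, chr10:80258151-80261012) encodes guanidinoacetate methyltransferase, which completes creatine with a methyl group from S-adenosylmethionine. The FPKM was 2.13 to 5.56 (median 4.21) after ANG II and 3.39 to 6.75 (median 4.99) in controls, and 10 of 12 ANG II samples were below the control median. With means of 4.12 ± 0.926 (SD, n = 12) and 5.01 ± 0.978 (SD, n = 12), the log2 fold change was -0.24 ± 0.10 (95% CI -0.45 to -0.03), and the limma adjusted p was 0.0768. This gene was close to the threshold, since it passed with median-ratio scaling (-0.28, limma adjusted p = 0.0350), with quantile normalization (-0.33, limma adjusted p = 0.0113) and without set 2 (-0.33, limma adjusted p = 0.0409). It also passed without ANG II sample 11 (limma adjusted p = 0.0463) or without control sample 4 (limma adjusted p = 0.0393).

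Transporter RNA was higher still when set against Ckm, which follows from the rise of Slc6a8 and the larger fall of Ckm given above. The Slc6a8 to Ckm ratio was 0.0588 to 0.128 (median 0.0834) after ANG II and 0.0370 to 0.0774 (median 0.0502) in controls. All 12 ANG II samples were above the control median and 8 were above every control, and 11 controls were below every ANG II sample. The mean ratio was 0.0888 ± 0.0229 (SD, n = 12) against 0.0518 ± 0.010 (SD, n = 12), and the control that overlapped was sample 2, at 0.0774. Within each of the 4 sets the mean was higher after ANG II, from 0.0777 against 0.0564 in set 1 to 0.102 against 0.0463 in set 2.

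Ak1 (ENSMUSG00000026817.14, chr2:32621758-32635058), the cytosolic adenylate kinase of muscle, followed Ckm and Ckmt2. Its FPKM was 195.3 to 332.0 (median 256) after ANG II and 278.4 to 402.6 (median 331) in controls. Of the ANG II samples, 11 of 12 were below the control median and 9 were below every control, and samples 7, 9 and 10, at 310.0, 312.5 and 332.0, made up the overlap. The mean fell from 338 ± 39.6 (SD, n = 12) to 259.9 ± 41.3 (SD, n = 12), with a log2 fold change of -0.39 ± 0.08 (95% CI -0.55 to -0.22, limma adjusted p = 6.81e-04). The Ak1 to Ckm ratio was 0.173 to 0.271 (median 0.217) after ANG II and 0.169 to 0.233 (median 0.184) in controls, with 3 ANG II samples above every control. In set 1 its mean was lower after ANG II (0.1945 against 0.1996), and it was higher in the other sets.

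**Figure D2:**
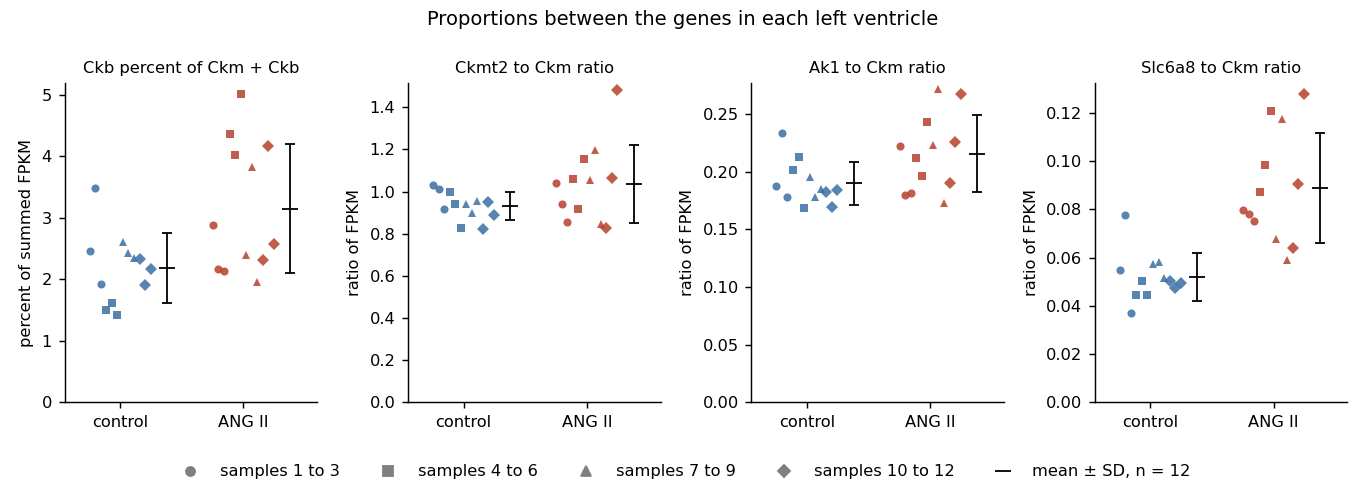
Proportions between the genes in each left ventricle, from left to right the Ckb percent of summed Ckm and Ckb FPKM and the ratios of Ckmt2, Ak1 and Slc6a8 to Ckm, with 12 control samples in blue, 12 ANG II samples in red, marker shapes for the 4 sets and the mean ± SD as a bar. The groups lie furthest apart for Slc6a8 to Ckm (mean 0.0888 against 0.0518), where 8 ANG II samples are above every control, and the groups overlap in all 4 panels.

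The differences of the called genes had the same sign in every set, but their size was not even. The log2 difference of Ckm was -0.26 in set 1, -0.93 in set 2, -0.37 in set 3 and -0.69 in set 4. For Ckmt2 the same differences were -0.32, -0.75, -0.23 and -0.39, and for Ak1 they were -0.29, -0.76, -0.14 and -0.35. Slc6a8 was higher in all 4 sets, by 0.26, 0.20, 0.11 and 0.19. Set 2 thus held the greatest difference of each of the 3 genes that fell. Without set 2, Ckm had a log2 fold change of -0.44 (limma adjusted p = 0.0472), Ckmt2 one of -0.32 (limma adjusted p = 0.0244), Ak1 one of -0.26 (limma adjusted p = 0.0311) and Slc6a8 one of 0.19 (limma adjusted p = 0.0085). All 4 still passed the adjusted p, and Ckm was no longer a DEG.

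Ckb was the gene whose group difference depended on the set. In set 2 it was 42.39 to 51.78 after ANG II and 28.13 to 34.26 in controls, a log2 difference of 0.65 with no overlap. In the other sets the differences were -0.35 in set 1, -0.27 in set 3 and -0.22 in set 4, and ANG II samples were below every control of their set in sets 1 and 3. The set 4 difference rested on ANG II sample 12, at 20.77. ANG II samples 10 and 11, at 41.27 and 49.21, were above the control mean of that set, 40.82. The limma test of the difference between sets passed for Ckb (F = 6.48, adjusted p = 0.0449) and for none of the other 7 genes, whose adjusted p was 0.182 to 0.928, against 7.49% of all tested genes. Without set 2 that adjusted p for Ckb was 0.987, and the log2 fold change of Ckb was -0.28 (limma adjusted p = 0.0607). Gatm had a like spread, with 0.61 in set 2 and -0.20, 0.17 and -0.06 in the others, but its difference between sets had an adjusted p of 0.247. In set 2 the fibroblast and macrophage markers also differed most between the groups. Their sums were higher in ANG II samples than in the controls of that set (macrophage 281.2 to 511.6 against 124.1 to 143.3). On the adjusted scale the mean control sums were the lowest of the 4 sets and the mean ANG II sums the highest (macrophage 134.8 and 380.7). Set offsets are unknown, so the low control sums are not an observation apart from the group difference. The part of these markers in the values of Ckb and Gatm was not tested.

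**Figure D3:**
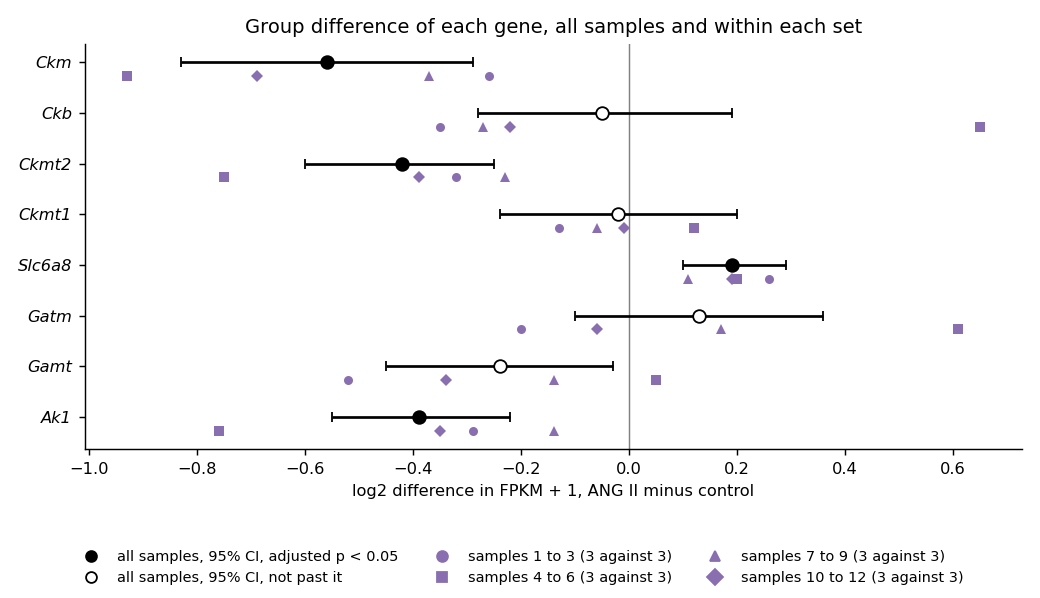
Log2 difference in FPKM + 1 (ANG II minus control, horizontal axis) of each gene, with the limma estimate over all 24 samples and its 95% CI in black, filled where the adjusted p is under 0.05, and the 4 within-set differences (3 against 3 samples) as purple markers. All 4 markers lie left of 0 for Ckm, Ckmt2 and Ak1 and right of 0 for Slc6a8, while for Ckb set 2 lies at 0.65 and the other sets between -0.35 and -0.22. The Ckb value of set 4 rests on ANG II sample 12.

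The adjustment itself could be taken out of the differences under an assumption. A common group difference was taken as kept, and the values around it as rescaled by set. For each of the 8 genes the spacing of the values gave the scaling used in each set, and thereby the within-set differences in the original FPKM, in steps of 0.01. Before the adjustment the mean difference over the sets was -567.4 FPKM for Ckm, -442.5 for Ckmt2, -85.7 for Ak1 and 14.5 for Slc6a8. As deposited, these differences were -556.6, -425.3, -78.4 and 13.1. The common group difference of the solution did not equal the mean before the adjustment. It was -464.5 for Ckm, -359.1 for Ckmt2, -78.2 for Ak1, 18.4 for Slc6a8 and 3.88 for Ckb, and the reason was not tested. In exact permutation tests that exchanged labels within the sets (two-sided, 160000 relabelings, unadjusted), the values before the adjustment gave p = 0.00211 for Ckm, 0.00065 for Ckmt2, 0.00015 for Ak1 and 3.13e-04 for Slc6a8. These 4 genes had the same direction in 4 of 4 sets. For Gamt the mean difference before the adjustment was -0.999 FPKM (exact permutation p = 0.0359), lower in 3 of 4 sets. Ckb (-0.57 FPKM, exact permutation p = 0.886), Gatm (0.338, exact permutation p = 0.252) and Ckmt1 (-0.0217, exact permutation p = 0.887) did not pass, and for Ckmt1 the direction of the difference matched the deposited one in only 2 of 4 sets, and for Gatm in 3 of 4. The set offsets are unknown, so that original levels cannot be compared between sets.

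**Figure D4:**
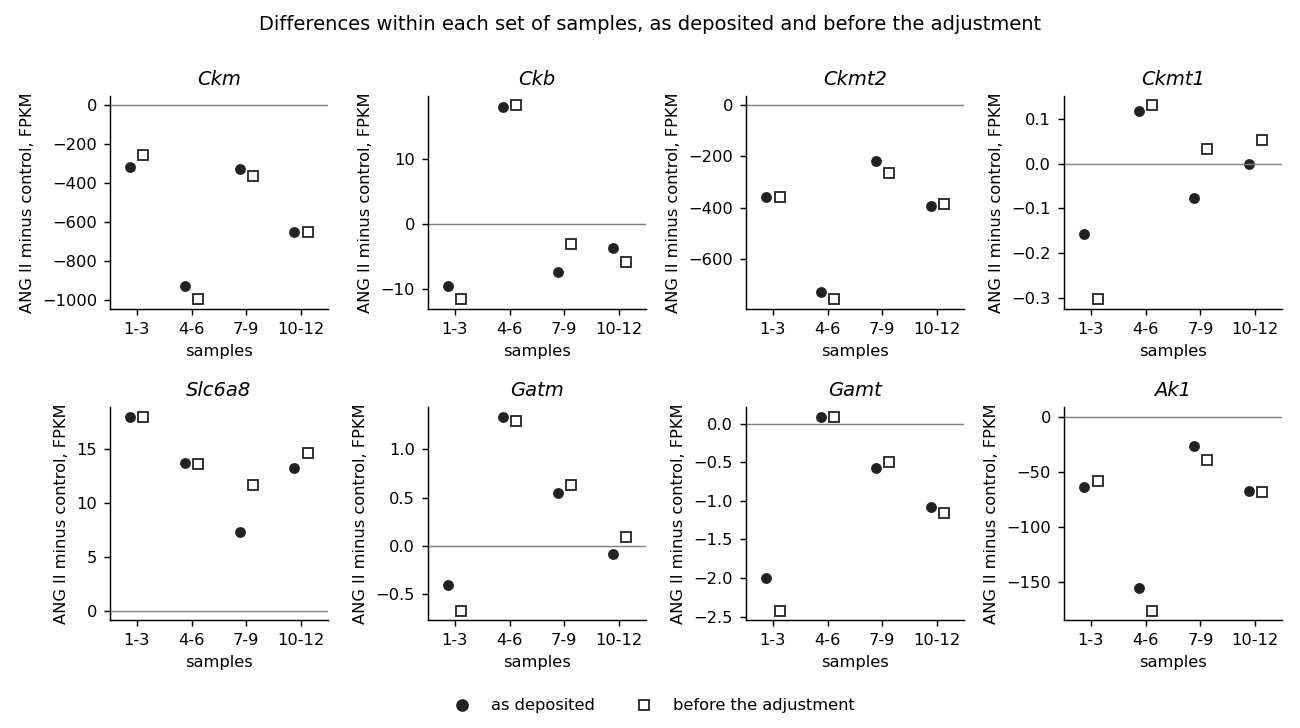
Difference in mean FPKM (ANG II minus control, vertical axis) within each set of 3 against 3 samples, as deposited (filled circles) and before the adjustment (open squares), for each of the 8 genes. Both points lie below 0 in every set for Ckm, Ckmt2 and Ak1 and above 0 for Slc6a8, the widest gap of Slc6a8 being in set 3 (7.33 deposited, 11.7 before), while they lie on opposite sides of 0 for Ckmt1 in sets 3 and 4 and for Gatm in set 4.

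Relative to the cardiomyocyte markers, the differences of Ckm, Ckmt2 and Ak1 were smaller, and those of Ckmt2 and Ak1 changed direction between sets. Per 1000 FPKM of the 8 summed markers, Ckm was 22.1 to 40.9 (median 32.2) after ANG II and 28.2 to 44.7 (median 36.0) in controls, a ratio of means of 0.876, where the FPKM itself had a ratio of 0.692. Ckmt2 had a ratio of 0.954 in place of 0.745 and Ak1 one of 0.982 in place of 0.768, with 6 of 12 ANG II samples above the control median for Ak1. Within sets 1 to 4 the ratio was 0.9182, 0.8542, 1.034 and 1.017 for Ckmt2 and 0.9431, 0.8456, 1.105 and 1.053 for Ak1, while that of Ckm was under 1 in each set (0.756 to 0.956). Slc6a8 was 2.20 to 3.17 (median 2.68) after ANG II and 1.56 to 2.18 (median 1.85) in controls, so that every ANG II sample exceeded every control, a ratio of 1.47. Ckb had a ratio of 1.27 and Gatm one of 1.57, which were 2.28 and 2.88 in set 2 and 0.8995 and 0.9421 in set 1. Since 4 of the 8 markers fell themselves, this scale is a second description and not a correction for cell number.

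Across the 24 samples Ckm, Ckmt2 and Ak1 varied together. Pearson's r of log2(FPKM + 1) was 0.93 between Ckm and Ckmt2, 0.94 between Ckm and Ak1 and 0.94 between Ckmt2 and Ak1. After the mean of each group in each set was removed, these were 0.87, 0.94 and 0.82. Ckb went most closely with Gamt (0.74, and 0.84 after removal), and its r with Ckm was 0.11, and 0.51 after removal. With Ak1 the r of Ckb was -0.01, and 0.54 after removal, and with Ckmt2 it was -0.09, and 0.19 after removal. The samples share 2 groups, 4 sets and their libraries, so that these values are descriptions.

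The genes with the most similar pattern were sought among the 11458 tested genes whose mean FPKM was 1 or more. For Ckm they were Myl3, a ventricular myosin light chain gene (r = 0.981), St3gal3 (0.966) and Metrn (0.960). For Ckmt2 they were Coq9, a gene of coenzyme Q synthesis (0.967), Uqcrc1, of respiratory complex III (0.958), and Tufm, a mitochondrial translation factor gene (0.957). For Ak1 they were Aes (0.975), Ndufb8, of complex I (0.973), and Cox5b, of complex IV (0.965). Slc6a8 had no close neighbour, its first being Nrap (0.794), Ipo5 (0.777) and Synpo (0.774). Gatm came nearest to Adgre1, the F4/80 macrophage antigen gene (0.910), Tapbp (0.891) and Cybb (0.889). Gamt came nearest to Lman2 (0.872), Sh3glb2 (0.869) and Slc29a1 (0.854), and Ckb to Tmem39b (0.934), Ptprs (0.898) and Manba (0.898).

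Partners of phosphotransfer, which are other adenylate kinases, the ADP/ATP translocases, the outer membrane channels and the nucleoside diphosphate kinases, were mostly lower where they passed the test. Of 15 tested, 7 fell, 1 rose and 7 did not pass, against 12.6% lower and 20.9% higher among all tested genes, and their median log2 fold change was -0.14 against 0.05 over all tested genes. Without set 2, 3 fell and 0 rose, where 1633 of all 14004 tested genes were lower and 1177 higher. Vdac1 and Vdac3, channels through which ATP and phosphocreatine leave the mitochondrion, fell in 12 of 12 samples relative to the control median. The mean FPKM of Vdac1 was 497 ± 24.2 against 596 ± 33.1 (log2 fold change -0.26 ± 0.04, limma adjusted p = 1.80e-05), and that of Vdac3 was 173 ± 12.1 against 211 ± 18.3 (-0.28 ± 0.05, limma adjusted p = 1.14e-04). Ak4, a matrix adenylate kinase gene, fell by 0.35 on the log2 scale (SE 0.09, limma adjusted p = 0.00286), and was at -0.28 without set 2 (limma adjusted p = 0.0591). Slc25a4, the heart ADP/ATP translocase gene, was named after its values were seen, and it fell by 0.32 (SE 0.08, limma adjusted p = 0.00403), with -0.22 and no call without set 2 (limma adjusted p = 0.122) and -0.12 and no call with quantile normalization (limma adjusted p = 0.0755). The gene that rose was Ak6, which encodes a nuclear adenylate kinase (0.16 ± 0.06, limma adjusted p = 0.0448), and it was not called with either other scaling or without set 2.

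Genes that supply arginine, glycine and methyl groups for creatine synthesis were mixed. Of 18 tested, 2 rose, 4 fell and 12 did not pass, so that 33.3% were called against 33.5% of all tested genes, and the median log2 fold change was 0.02 against 0.05. Both genes that rose belong to arginine synthesis from citrulline. Ass1, argininosuccinate synthase, rose from a mean FPKM of 4.72 ± 1.70 to 8.38 ± 2.81 (log2 fold change 0.72 ± 0.19, limma adjusted p = 0.00473), and Asl, argininosuccinate lyase, rose in 12 of 12 samples relative to the control median (0.34 ± 0.10, limma adjusted p = 0.00946). Without set 2 these changes were 0.33 and 0.18 and neither passed (limma adjusted p = 0.123 and 0.191). In that fit 0 of the 18 rose and 3 fell, where 1177 of all 14004 tested genes were higher and 1633 lower. Of the genes that fell, Gcsh, of the glycine cleavage system, changed by -0.19 ± 0.04 (limma adjusted p = 6.81e-04). Shmt2, which interconverts serine and glycine in mitochondria, changed by -0.22 ± 0.05 (limma adjusted p = 0.00114), and Gnmt, which uses S-adenosylmethionine to methylate glycine, changed by -0.48 ± 0.14 (limma adjusted p = 0.0136).

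At the sites where creatine kinase delivers ATP, 2 of the 9 genes reported rose, 1 fell and 6 did not pass, which is 33.3% called against 33.5% of all tested genes, with a median log2 fold change of 0.01 against 0.05. Atp2a2, the sarcoplasmic reticulum calcium pump, fell from a mean FPKM of 3859 ± 277.5 to 3078 ± 310.2 (-0.33 ± 0.06, limma adjusted p = 3.29e-04), with 12 of 12 ANG II samples below the control median, but with quantile normalization it was -0.14 (limma adjusted p = 0.123). Atp1b1 (-0.03) did not pass. Of the M-band proteins, to which M-type creatine kinase binds, Myom1 rose from 395 ± 47.5 to 478 ± 46.4 FPKM (0.28 ± 0.07, limma adjusted p = 0.00277), while Myom2 (0.22), Myom3 (0.01), Ttn (0.11) and Fhl2 (-0.16) did not pass; without set 2 Myom2 was at 0.32 and passed (limma adjusted p = 0.0244). Myh7, the slow myosin heavy chain gene, was 173.0 to 741.3 FPKM after ANG II and -57.4 to 167.9 in controls, and it rose in the test with negative values set to 0 (3.36 ± 0.87, limma adjusted p = 0.00464, and 1.47 without set 2). Myh6, the fast form of the adult mouse ventricle, had a log2 fold change of -0.23 (limma adjusted p = 0.0648), which was 0.07 with quantile normalization.

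Genes that handle AMP, the product of adenylate kinase, included 3 that rose, 4 that fell and 5 that did not pass, of 12 tested, which is 58.3% called against 33.5% of all tested genes, with a median log2 fold change of 0.10 against 0.05. Without set 2, 2 rose and 3 fell, where 1177 of all 14004 tested genes were higher and 1633 lower. Within AMP-activated protein kinase, the regulatory subunits moved in different directions. Prkag1 fell from 56.8 ± 3.92 to 43.3 ± 4.00 FPKM (-0.39 ± 0.05, limma adjusted p = 3.73e-06) and Prkab1 from 28.1 ± 2.34 to 20.8 ± 2.73 (-0.43 ± 0.06, limma adjusted p = 1.23e-05), each in 12 of 12 samples relative to the control median. Prkag2 rose from 14.4 ± 2.47 to 18.5 ± 3.51 (0.34 ± 0.10, limma adjusted p = 0.00870), and it was at 0.29 without set 2 (limma adjusted p = 0.0926). These directions held under both other scalings. The catalytic subunit genes Prkaa1 (0.20) and Prkaa2 (0.05) did not pass. Nt5c1a, the cytosolic nucleotidase that makes adenosine from AMP, fell by 0.46 (SE 0.10, limma adjusted p = 9.48e-04), and Ada, adenosine deaminase, rose by 0.42 from a low level (SE 0.11, limma adjusted p = 0.00444). Ampd2, an AMP deaminase gene, rose by 0.35 (limma adjusted p = 0.0252), with a change of 0.08 without set 2 (limma adjusted p = 0.568).

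**Figure D5:**
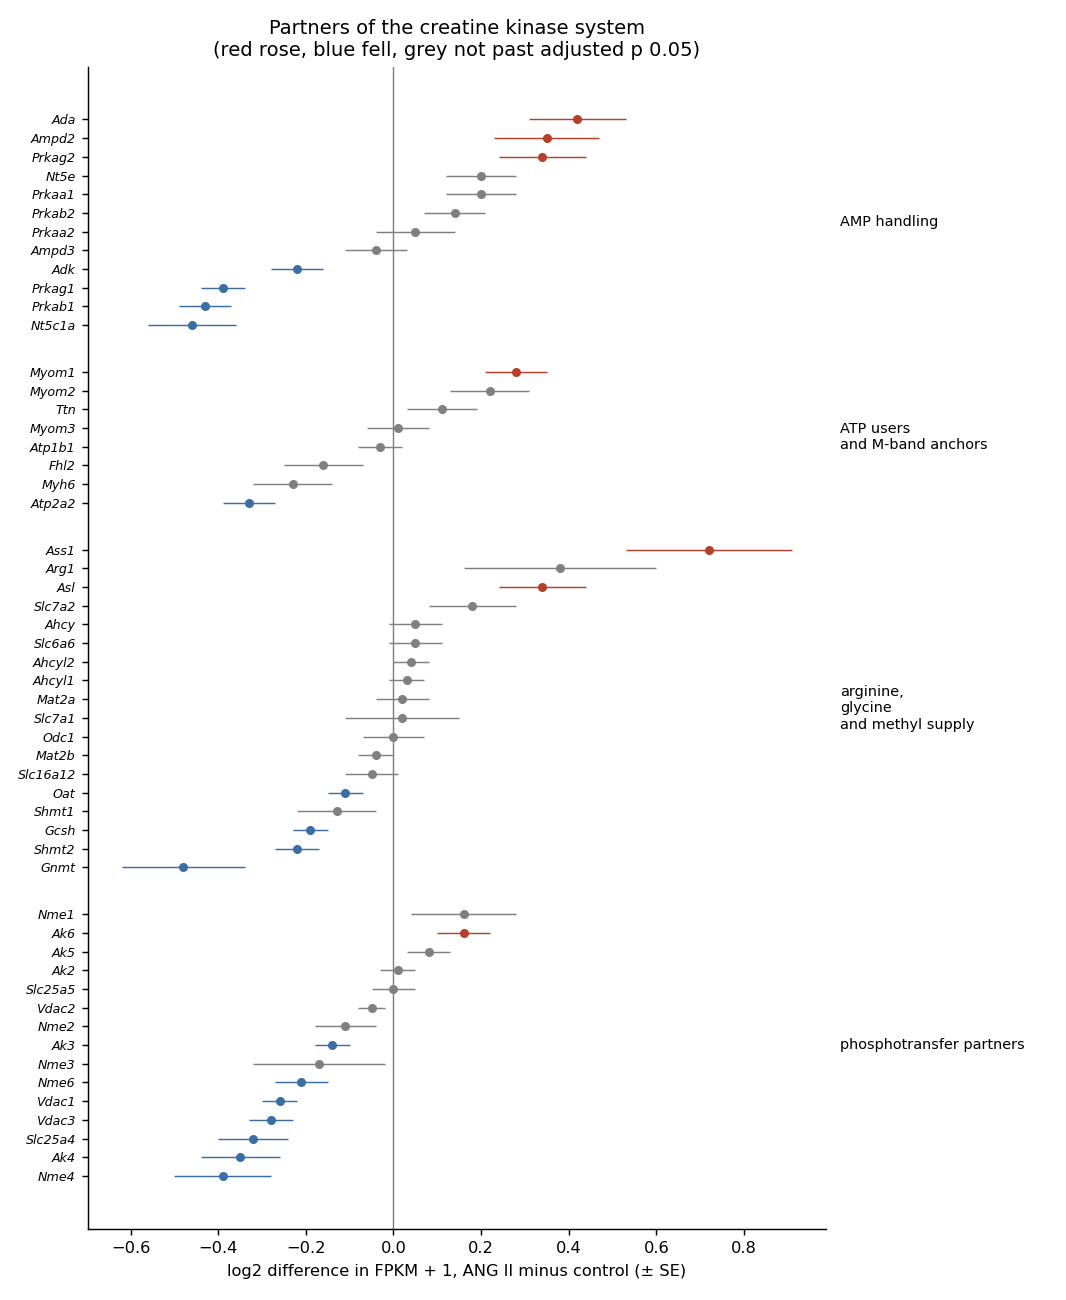
Log2 difference in FPKM + 1 (ANG II minus control, horizontal axis, ± SE) of the partner genes in 4 lists, with red for genes that rose, blue for genes that fell and grey for genes not past an adjusted p of 0.05; Myh7, at 3.36, is outside the axis and not drawn. Most phosphotransfer partners lie at or left of 0, from Nme4 at -0.39 to Ak6 and Nme1 at 0.16, whereas the AMP handling genes spread from -0.46 to 0.42.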

How the data were processed

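RNA of left ventricles was sequenced for 24 samples, 12 per group, of the 16 per group in the study's methods; the rest were not analysed here. The authors selected RNA with oligo(dT) and deposited FPKM per gene symbol. The submitters' processing notes name Bowtie2, HISAT and RSEM; versions, roles and genome build are not given in the sources used here. The deposited values are treated as a score, adjusted FPKM and not plain FPKM, because 2741 were negative and because of exact ties. At least 100 genes were tied in every pair of one group's samples within a set, but 0 between sets or between the groups. Sets of the 2 groups were joined by their sample numbers. No adjustment step is named in the methods. Their sums were 460720 to 515192 after ANG II and 482603 to 567972 in controls. Fragments per sample, and hence depth and counting error, are unknown.

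Here, negative values were set to 0. Genes whose FPKM averaged 0.1 or more were tested with limma 3.58.1 (R 4.3.3, intensity trend, no covariate) on log2(FPKM + 1) with Benjamini-Hochberg adjustment; fold changes on this scale understate those of low genes. Both the test and the recovery below were tested on simulated data. Other steps used scipy 1.17.1, pandas 2.3.3 and numpy 2.4.6 in Python 3.11.15. The scaling of a gene in each set was recovered from steps of 0.01 FPKM, assuming that its values around a common group difference were rescaled by set while that difference was kept. Tests on the deposited values do not allow for this use of the groups, so their p-values may be too small. With the set as a term, 3911 of 14026 genes passed, against 4697 without it. This recovery, the alternatives for the partner lists and the proportions without each sample were added after the data were seen. Positions are from GENCODE M21, and annotated coordinates belong to GRCm38.

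The members and gene lists were chosen with earlier results of these data known. Named were all 8 members, up to 3 rising and 3 falling genes of each list by adjusted p, the genes of the list of ATP users and M-band anchors (counted over those reported, since some results are not reported here), and the 3 genes most correlated with each member above a mean FPKM of 1. Alternatives were a pseudocount of 0.1, quantile normalization, median-ratio scaling, no filter or an average of 1 or more, no trend, the replicate number as a block, the set as a term, each set left out or alone, each sample left out, and permutation tests (100000 resamples, or exact within sets). Marker lists also covered endothelial cells (1 of 4 rose, 1 fell), smooth muscle cells and pericytes (2 of 5 rose), atrial myocytes (1 of 4 rose) and adipocytes (0 of 3 passed).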

Additional observations from a re-analysis of the deposited data

Results flagged for a closer look

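The group difference of Ckb, the brain-type creatine kinase gene, differed between the 4 sets of samples (limma interaction test, adjusted p = 0.0449). It was 0.65 on the log2 scale in samples 4 to 6 and -0.35, -0.27 and -0.22 in samples 1 to 3, 7 to 9 and 10 to 12. Before the adjustment the same differences were 18.2 FPKM in samples 4 to 6 and -11.6, -3.06 and -5.87 FPKM in the others. Among samples 10 to 12 only ANG II sample 12 (20.77 FPKM as deposited) was below the control mean of that set, 40.82. In samples 4 to 6 the summed macrophage markers were 2.82 times as high after ANG II as in controls, against 1.05 to 2.19 times in the other sets. The summed fibroblast markers there were 1507 to 2406 FPKM after ANG II and 127.5 to 214.5 in controls, whose 9 values of Col1a1, Col1a2 and Col3a1 were below 0 and counted as 0, against ratios of 1.21 to 1.47 in the other sets. Their part in the difference was not tested.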

How the results depend on the processing

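The adjusted p calls of Ckm, Ckmt2 and Ak1 and their direction held under each pseudocount, filter, scaling and trend setting, with the set as a term and without each set or sample. Within single sets of 3 against 3 samples none of 8 genes passed in samples 1 to 3, 7 to 9 and 10 to 12 (limma count 0 each). There Ckm was at -0.26, -0.37 and -0.69, Ckmt2 at -0.32, -0.23 and -0.39 and Ak1 at -0.29, -0.14 and -0.35. Slc6a8 was at 0.26, 0.20, 0.11 and 0.19 in the 4 sets, did not pass in any of them, and did not pass with median-ratio scaling (0.14). Gamt passed with median-ratio scaling (-0.28), with quantile normalization (-0.33) and without samples 4 to 6 (-0.33), was under 0.05 in the permutation tests of FPKM (-0.893 overall and within sets, -0.999 before the adjustment), whose p-values, like the limma p of 0.0298, are unadjusted, and turned to 0.05 in samples 4 to 6 alone. Gatm passed in samples 4 to 6 alone (0.61) and was at -0.20 in samples 1 to 3, -0.06 in samples 10 to 12 and -0.03 without samples 4 to 6. Ckb, not called in the full comparison, passed with the other sign in samples 4 to 6 alone (0.65, limma adjusted p = 0.00447), and changed sign without samples 1 to 3 (0.06), 7 to 9 (0.03) or 10 to 12 (0.01), and Ckmt1 changed sign in samples 4 to 6 alone (0.12) and without samples 1 to 3 (0.02).

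Leaving out each sample gave -0.62 to -0.51 for Ckm, -0.09 to 0.03 for Ckb (above 0 without ANG II sample 12), -0.47 to -0.39 for Ckmt2, -0.06 to 0.04 for Ckmt1 (0.02, 0.01, 0.04 and 0.01 without ANG II samples 2 and 4 and control samples 2 and 4), 0.17 to 0.21 for Slc6a8, 0.07 to 0.18 for Gatm, -0.28 to -0.18 for Gamt and -0.42 to -0.35 for Ak1. The number of the 8 genes that passed was 4 to 5, that of all genes 4038 to 5160 and that of DEGs 715 to 979. Over all genes, 4697 passed and 831 were DEGs. Without samples 4 to 6 these were 2810 and 553, and in samples 4 to 6 alone 2706 were DEGs. In samples 1 to 3 alone limma called 0 and 0, with 1236 genes at an unadjusted p under 0.05, and 685 passed in samples 7 to 9. In samples 10 to 12 it called 39, all DEGs (39). A pseudocount of 0.1 gave 1489 DEGs. Without samples 4 to 6, the partners of phosphotransfer that passed numbered 3 (8 with them) and the genes of arginine, glycine and methyl supply 3 (6 with them); leaving out each sample gave 7 to 8 and 6 to 6, and 3 to 4 and 7 to 9 for the other lists. The causes of these shifts were not tested. The replicate number as a block left the calls of the 8 genes at 4 (1 higher, 3 lower) and lowered that of all genes to 2824. Deviations of same-numbered samples correlated at -0.56 to -0.00 in 12 pairs, 0 of them above 0.1, and 0 samples correlated best with their own number. Same-numbered samples also share a set that was adjusted together, so these values cannot show whether the samples were paired. Depth is unknown, which limits Ckmt1, Gatm and Gamt most.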
